A study of Mus musculus with 9 samples.

Results

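The genes described here carry glucose into the cell, break it down to pyruvate and export the lactate made from it. They were taken by name, 10 in all, from the known pathway, with earlier results of these data known: the glucose carrier Slc2a1, the glycolytic enzymes Hk2, Pfkp, Aldoa, Gapdh, Pgk1, Eno1 and Pkm, the lactate dehydrogenase gene Ldha and the lactate exporter Slc16a3. Of the 11931 rows of the normalised count table, 8 bear these names, and all 8 passed the filter on low values. Pfkp and Eno1 have no row under their names and are not analysed here.

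Glycolysis turns each glucose into pyruvate in the cytosol. Lactate dehydrogenase can then reduce pyruvate to lactate, which leaves the cell through monocarboxylate carriers together with a proton. Many of these genes are known targets of the hypoxia-inducible factor HIF and of MYC, and fibroblasts next to tumours have been described both as producers and as users of lactate.

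The cells were normal mammary fibroblasts taken from female BALB/c mice at an age of 12 weeks, from the mammary fat pad, with 1 week of recovery on collagen. A first group then stayed alone for 5 days, and the others shared the dish with 4T1-GFP cells, for 3 days or for 5. The 4T1 line is a mammary carcinoma of BALB/c origin, here marked with green fluorescent protein (GFP). In each of the 3 groups 3 libraries were made from cells sorted as GFP-negative and positive for podoplanin (PDPN), by 3′ end mRNA sequencing. All groups share the strain, the recovery on collagen, the medium and the sort, no monoculture was sampled at 3 days, and no label says whether replicates were separate cultures or animals, so p-values measure only the spread between these libraries, which may be technical.

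Reads recovered from the values numbered between 1048471 and 3567326 a library, and each of the 3 monocultures was deeper than every co-culture. All 12 listed fibroblast markers were in the table, with a summed level of 39639 to 63258 normalised counts that Col1a1 and Col1a2 dominate. Of the 12, 5 fell at 3 days against monoculture, and at 5 days 6 fell and 1 rose. In the same order, 9.37%, 11.4% and 12.6% of all genes tested were called. Pdgfra went from a mean of 189.3 to 51.7 and 21.0, Thy1 from 2588 to 1545 and 931, and Vim from 5219 to 4803 and 11041. Of the other cell types, 6 of 9 leukocyte markers were in the table (summed 67.3 to 351.6, Ptprc not among them), 2 of 7 endothelial markers (19.2 to 43.2, Pecam1 not among them) and 1 of 5 adipocyte markers. This marker, Fabp4, stood at 93.5 to 145.2 in the monocultures and fell to between 5 and 22.3 in the co-cultures. Of 5 pericyte markers 3 were in the table and 2 were tested. Cspg4 rose from a mean of 10.2 to 77.9 and 108.8. Mcam, at means of 7.97, 11.3 and 4.77, did not follow it, and Kcnj8 was at most 0.7 in any library. The 14 epithelial and carcinoma markers in the table summed to 54.9 to 82.8 in the monocultures, 1115 to 1276 at 3 days and 1100 to 1532 at 5 days of co-culture. The defining marker Epcam stood at 0, 0.5 and 0 in the monocultures and Cldn3 at 0 in all 3. Of 6 basal and myoepithelial markers 3 were in the table. They summed to 2.5 to 11 in the monocultures, 44.6 to 66.4 at 3 days and 39.6 to 49.9 at 5 days. The 2 tested, Krt14 and Sfn, rose in both comparisons with monoculture, where 10.6% and 12.6% of all genes tested rose. Oxtr, at most 3.9 in any library, was not tested. Epithelial and basal markers, part of the fibroblast markers, Fabp4 and Cspg4 moved with the groups, and their part in the results was not tested. In sorted bulk samples fewer cells of a type and less RNA per cell cannot be told apart. Replicate 2 at 5 days rests on a column whose name does not mention 4T1, and it was assigned by elimination. Of the calls on the 8 genes, those of Slc2a1 at 5 days and of Pkm between the days were lost without it.

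After 3 days with carcinoma cells, the lactate genes Ldha and Slc16a3 and the pyruvate kinase gene Pkm were lower than in fibroblasts alone. The fibroblasts alone were cultured for 5 days, so time and co-culture cannot be told apart in this 3-day comparison. After 5 days of co-culture Ldha and Pkm lay closer to the monoculture again, Slc16a3 had risen above it, and the glucose carrier Slc2a1 was at its highest. Aldoa hardly differed in mean between the groups. Of the 8 genes, 3 fell and 0 rose at 3 days against monoculture (limma, adjusted p under 0.05), where 9.37% of the 10639 genes tested fell and 10.6% rose. At 5 days 3 rose (Slc16a3, Slc2a1 and Gapdh) and 0 fell, where 12.6% of all genes rose and 11.4% fell. Without monoculture replicate 1 only 1 rose, Slc16a3. The Gapdh call rests on replicate 1 at 5 days, and the Slc2a1 call was lost without replicate 2 at 5 days. Between the co-cultures 3 rose from 3 to 5 days and 0 fell, where 3.2% rose and 3.71% fell. The median log2 fold change of the 8 genes was -0.61 at 3 days and 0.15 at 5 days against monoculture, and 0.77 at 5 against 3 days, while the median of all genes tested was 0.00, -0.01 and -0.01. The comparisons with monoculture share its 3 libraries. Fold changes are on the log2(normalised count + 1) scale, and adjusted p-values are from limma with Benjamini-Hochberg adjustment over all genes tested.

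**Figure D1:**
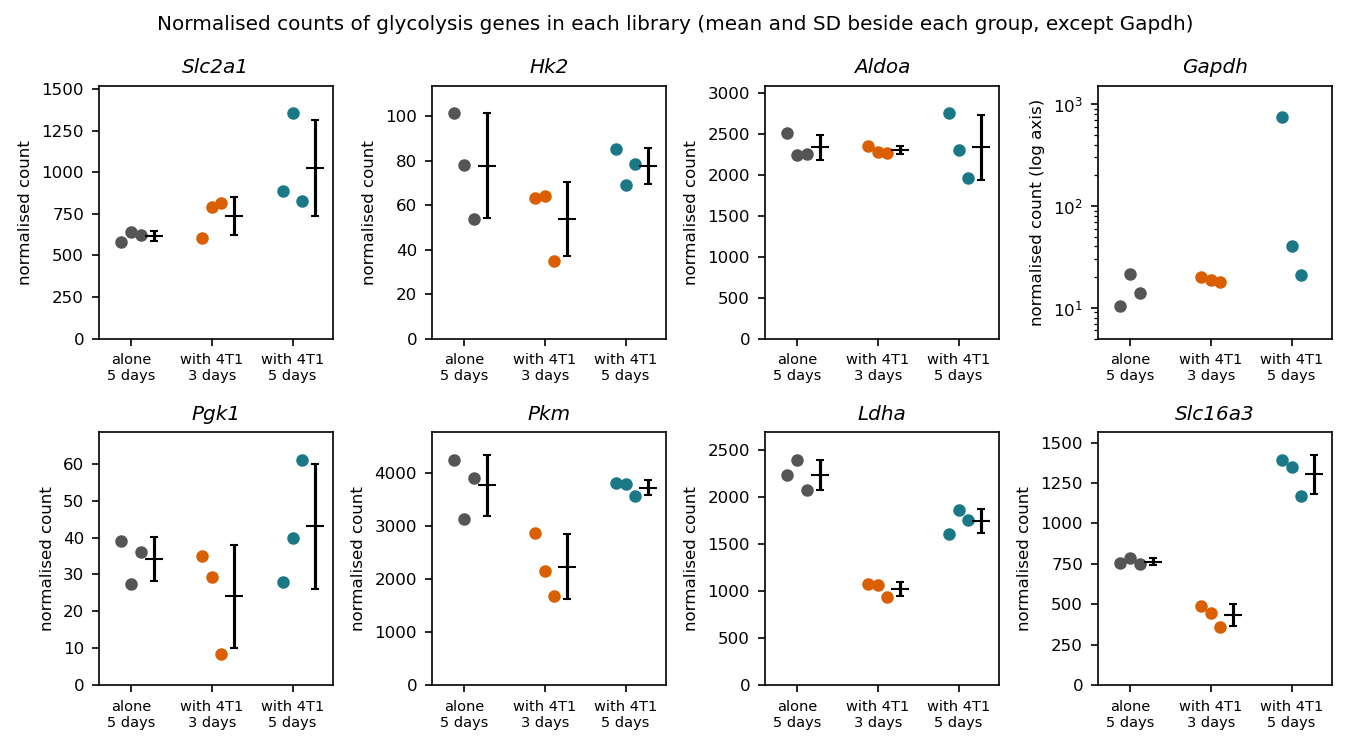
Normalised counts of the 8 genes in each library, grouped by culture (points are libraries, and the line and bar beside each group are the mean and SD, n = 3). Gapdh is on a log axis without mean and SD. Ldha, Pkm and Slc16a3 are lowest in the 3 libraries of the 3-day co-culture, and Slc16a3 is highest in those of the 5-day co-culture.

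Ldha (ENSMUSG00000063229, chromosome 7, 46841475 to 46855627, plus strand, mm10, protein-coding) encodes the muscle-type subunit of lactate dehydrogenase, which favours the reduction of pyruvate. Its normalised counts were 2236.1, 2401 and 2075.3 in the monocultures, 1076.1, 1062.3 and 941.9 at 3 days with carcinoma cells, and 1607.4, 1864.6 and 1761.5 at 5 days. The 3 groups did not overlap: the 3-day co-cultures were lowest and the 5-day co-cultures lay between them and the monocultures. At 3 days Ldha fell to 0.459 times the monoculture mean, or -1.12 ± 0.16 (SE) on the log2 scale, with an adjusted p of 0.00013. From 3 to 5 days it rose by 0.76 (95% interval 0.42 to 1.11, adjusted p = 0.0093). At 5 days against monoculture the log2 fold change was -0.36 (-0.70 to -0.02), which did not pass (adjusted p = 0.12). The calls at 3 days and between the days held in all 20 alternatives run, leaving out each library included.

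Slc16a3 (ENSMUSG00000025161, chromosome 11, 120948480 to 120960868, plus strand) encodes the monocarboxylate carrier known for lactate export from highly glycolytic cells. It had 754.4, 785.9 and 747.5 normalised counts in the monocultures, 491.5, 445.5 and 360.3 at 3 days, and 1395.3, 1348.6 and 1167.3 at 5 days. Again no groups overlapped, but here the order was different, with the 5-day co-cultures on top. Slc16a3 fell at 3 days, by 0.83 on the log2 scale (SE 0.17, adjusted p = 0.0023). At 5 days it rose to 1.71 times the monoculture mean, or 0.77 ± 0.17 on the log2 scale (adjusted p = 0.0033). The rise from 3 to 5 days was 3.01 times, at 1.60 on the log2 scale (1.24 to 1.95, adjusted p = 8.0e-05). All 3 calls held in the 20 alternatives.

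Pkm (ENSMUSG00000032294, chromosome 9, 59656368 to 59679375, plus strand) encodes the pyruvate kinases M1 and M2, splice forms of the last glycolytic step that a count per gene does not separate. Its normalised counts were 4258.1, 3138.8 and 3917.4 in the monocultures, 2879.5, 2160.8 and 1673.7 at 3 days, and 3807.8, 3804.7 and 3560.5 at 5 days. Every 3-day library lay below every other library, and the 5-day libraries fell within the range of the monocultures. Pkm fell at 3 days by 0.78 on the log2 scale (adjusted p = 0.014) and rose by 0.77 from 3 to 5 days (adjusted p = 0.035). The first did not pass in fits that left out monoculture replicate 1 (-0.68, adjusted p = 0.056) or co-culture replicate 3 at 3 days (-0.58, adjusted p = 0.071). The second was lost without replicate 2 or 3 at 3 days or any replicate at 5 days, with values of 0.58 to 0.80 and adjusted p from 0.072 to 0.11. At 5 days against monoculture the log2 fold change was -0.01 (-0.45 to 0.43).

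Slc2a1 (ENSMUSG00000028645, chromosome 4, 119108711 to 119137983, plus strand) encodes the glucose carrier of most growing cells. It had 580.5, 642.2 and 624.7 normalised counts in the monocultures, 604.5, 793.6 and 816.7 at 3 days, and 886.8, 1357 and 829 at 5 days. The 5-day co-cultures lay above all other libraries, while the 3-day co-cultures overlapped the monocultures. Slc2a1 rose at 5 days to 1.66 times the monoculture mean, or 0.70 ± 0.20 on the log2 scale (adjusted p = 0.018). That call was lost without replicate 2 at 5 days (0.48, adjusted p = 0.11), the highest library and the column without 4T1 in its name, without monoculture replicate 1 (0.66, adjusted p = 0.055), and under quantile normalisation (0.55, adjusted p = 0.056). At 3 days the log2 fold change was 0.25 (-0.17 to 0.67, adjusted p = 0.42), and between the days it was 0.45 (0.03 to 0.87, adjusted p = 0.20).

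Hk2 and Aldoa, of the upper pathway, did not pass in any comparison. Hk2 (ENSMUSG00000000628, chromosome 6, 82725025 to 82774454, minus strand) encodes a hexokinase that binds mitochondria and traps glucose as its phosphate. Its normalised counts were 101.5, 77.9 and 54 in the monocultures, 63.1, 64 and 34.8 at 3 days, and 85.4, 68.9 and 78.7 at 5 days. The 5-day libraries lay above the 3-day libraries and within the range of the monocultures, with a log2 fold change of 0.56 (-0.02 to 1.14, adjusted p = 0.24) between the days. Aldoa, the aldolase that splits fructose bisphosphate, averaged 2333 ± 151 without carcinoma cells, 2296 ± 50.5 at 3 days with them and 2335 ± 396 at 5 days (SD, n = 3). The 95% intervals of its log2 fold change lay between -0.39 and 0.38 in all 3 comparisons. Its symbol belongs to 2 annotated genes on the minus strand of chromosome 7, ENSMUSG00000030695 (126795234 to 126800751) and ENSMUSG00000114515 (126800790 to 126809108), and the table holds 1 row.

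Pgk1 and Gapdh, of the lower pathway, had few reads. Pgk1 (ENSMUSG00000062070, chromosome X, 106187100 to 106203699, plus strand) encodes the first enzyme of the pathway that yields ATP. It had 39, 27.4 and 36 normalised counts in the monocultures, 34.9, 29.2 and 8.3 at 3 days, and 27.9, 40 and 61.2 at 5 days, where 8.3 rests on 6 reads. The groups overlapped in the comparisons with monoculture and no comparison passed, with log2 fold changes of -0.69 (adjusted p = 0.28) and 0.27 (adjusted p = 0.70). Between the days it was 0.96 (0.06 to 1.85, adjusted p = 0.19), or 0.35 without replicate 3 at 3 days.

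Gapdh (ENSMUSG00000057666, chromosome 6, 125161715 to 125166467, minus strand), the gene of glyceraldehyde-3-phosphate dehydrogenase and a common reference gene, had 1 library far from the other 8. It had 10.5, 21.6 and 14.1 normalised counts in the monocultures, 19.9, 18.8 and 18.1 at 3 days, and 746.6, 40 and 21.2 at 5 days. The value of 746.6, in replicate 1 at 5 days, came from 831 reads, against 12 to 45 in the other libraries. Of the 10639 genes tested Gapdh was the only 1 that stood at least 10-fold above every other library in that library, and in the other 8 libraries 0 genes did so. The called rise at 5 days (log2 fold change 2.48 ± 0.83, adjusted p = 0.039) rests on that library: without it the value was 0.94 (adjusted p = 0.099). The call was also lost without monoculture replicate 1 or 3 or replicate 1 or 2 at 3 days (2.25 to 2.48, adjusted p from 0.053 to 0.092) and in a fit of the compared groups alone (adjusted p = 0.068).

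The sequence at the 3′ end bears on which of these genes a 3′ library can count. Of the 251 windows of 50 bases in the last 300 bases of 1 protein-coding transcript a gene (GENCODE M21), 82.9% of those of Gapdh also occur, on either strand, in at least 1 of 99 other annotated genes, among them Gapdh-ps14 and Gapdh-ps15. For Eno1 the share was 90.0%, all with Eno1b, and for Pfkp it was 100%, all with its neighbour Pitrm1. For Slc2a1, Hk2, Pgk1, Pkm, Ldha and Slc16a3 it was 0%, and for Aldoa 2.39%. Over the 11165 genes of the table with such a transcript the median was 0%, and 6.41% of them had a share of at least 50%. Along the whole transcript the share was 82.5% for Gapdh (222 other genes), 68.0% for Pgk1 (5), 34.4% for Pkm (8), 17.1% for Ldha (14), 13.9% for Aldoa (6), 1.74% for Slc2a1 (1) and 0% for Hk2 and Slc16a3. Whether reads were lost or split for this reason was not tested, and the levels of Gapdh, Pgk1 and, to a lesser share of the transcript, Pkm are uncertain.

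Ldhb encodes the heart-type subunit of lactate dehydrogenase and had 33.4, 48.5 and 47.6 normalised counts in the monocultures, 19.9, 18.1 and 13.9 at 3 days, and 16.2, 19.6 and 23.7 at 5 days. Both co-cultures lay below the monocultures and overlapped each other. Ldhb fell at 3 days (log2 fold change -1.27, adjusted p = 0.0045) and at 5 days (-1.08, adjusted p = 0.010, lost without monoculture replicate 2 or 3, at adjusted p up to 0.052). The log2 ratio of Ldha to Ldhb within a library was 5.68 ± 0.31 in the monocultures, 5.82 ± 0.15 at 3 days and 6.40 ± 0.21 at 5 days (SD, n = 3). At 5 days it was 0.72 above the monocultures and 0.58 above the 3-day co-cultures with no overlap (exact two-sided permutation p = 0.1 for both, the smallest that 3 against 3 libraries can give, and 0.3 adjusted over 6 ratio tests). At 3 days it was 0.14 above the monocultures (exact permutation p = 0.5). The log2 ratio of Hk2 to the housekeeping hexokinase Hk1 was -2.25, -2.22 and -2.38, and its differences had exact permutation p from 0.7 to 1. Planned ratios with Slc16a1 and Pfkp were not computed, since neither has a row.

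**Figure D2:**
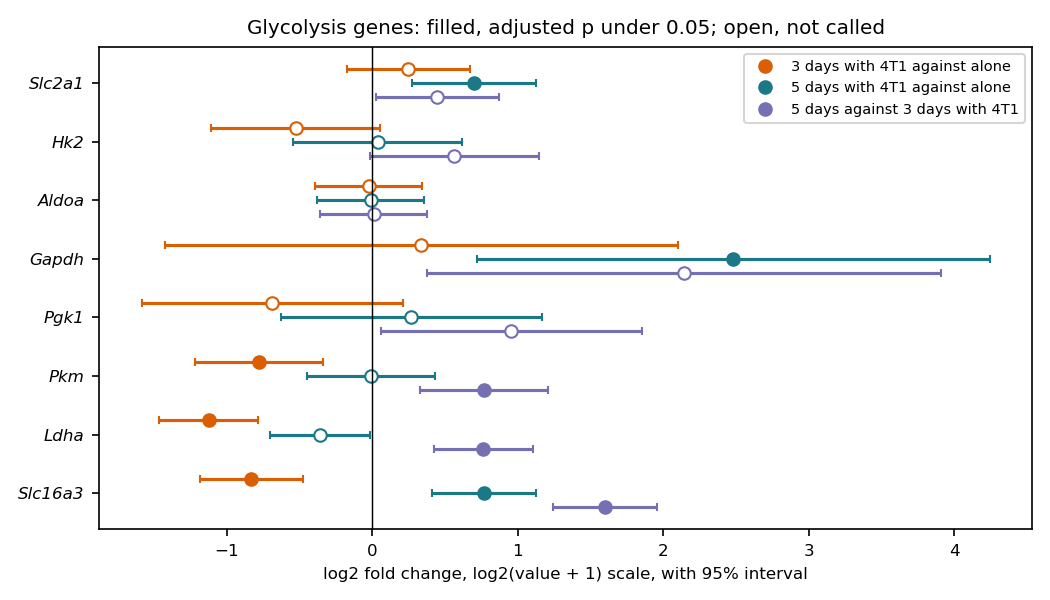
Log2 fold change of the 8 genes (on the log2(value + 1) scale, horizontal axis) with its 95% interval in the 3 comparisons; filled points passed at an adjusted p under 0.05. Ldha, Pkm and Slc16a3 lie left of 0 at 3 days and right of 0 at 5 against 3 days, and the Gapdh interval at 5 days spans 0.72 to 4.24.

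The promoters of the 8 genes were read for the letters ACGTG, a form of the core that HIF dimers are known to bind. These letters also sit in the MYC and ChREBP site CACGTG, and other forms of the HIF core were not searched. The 250 bases before the most upstream RefSeq start (GRCm38.p6) were searched on both strands, where CACGT is ACGTG on the other strand, and the capitals below mark each match. The Ldha window, chr7:46845554-46845803 on the plus strand, lies inside the annotated gene but in no exon, and it is shown whole because it holds 3 places, 2 of them with the full CACGTG. For the others only a stretch around the matches is shown.

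Ldha: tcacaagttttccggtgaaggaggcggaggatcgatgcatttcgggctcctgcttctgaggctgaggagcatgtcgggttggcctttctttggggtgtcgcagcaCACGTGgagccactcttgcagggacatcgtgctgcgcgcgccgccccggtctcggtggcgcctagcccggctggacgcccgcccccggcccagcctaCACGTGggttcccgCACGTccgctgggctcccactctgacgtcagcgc

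Slc16a3, chr11:120949038-120949059, plus strand: tgACGTGcgcgggggACGTGcc

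Slc2a1, chr4:119108707-119108726, plus strand: ggACGTGctccccaggcccc

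Pgk1, chrX:106186948-106186975, plus strand: ggACGTGacaaatggaagtagCACGTct

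Hk2, chr6:82774663-82774682, minus strand: caCACGTcccaactctggcg

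Hk2, chr6:82774489-82774508, minus strand: tcCACGTcactgtccggggc

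In Ldha the matches begin 145, 48 and 34 bases before the start, in Slc16a3 27 and 14 bases, and in Hk2 226 and 52 bases. In all, 5 of the 8 genes (62.5%) held ACGTG in this window, against 22.0% of the 9048 genes of the table with a window and 16.5% of all 27025. CACGTG was in the window of Ldha alone among the 8, and in 8.7% of the genes of the table. Aldoa and Pkm have a match only before a start further downstream, and Gapdh has no match to ACGTG on either strand. Of the genes with the letters, Ldha and Slc16a3 fell at 3 days, and Slc2a1, Hk2 and Pgk1 did not pass the test. Of those without them in this window, Pkm fell, and Aldoa and Gapdh did not pass. Whether the letters bear on these calls was not tested. A match describes these letters and is not a bound site.

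Of 18 other glycolytic enzymes fixed as a list, 9 were tested. At 3 days 2 fell (Pfkl, Tpi1) and 1 rose (Bpgm), at 5 days 2 fell (Pfkl, Pfkm) and 1 rose (Bpgm), and between the days 2 rose (Hk1, Tpi1) and 0 fell. In the same order, 9.37% and 10.6%, 11.4% and 12.6%, and 3.2% and 3.71% of all genes tested were called. The median log2 fold change was -0.21, 0.09 and 0.36. Tpi1, the triose phosphate isomerase gene, had 864.6, 1546.8 and 1023.2 normalised counts in the monocultures, 714.1, 698.2 and 381.2 at 3 days, and 1159.9, 973.3 and 1207.2 at 5 days. Like Pkm, it was lowest in all 3-day libraries. It fell by 0.95 on the log2 scale (adjusted p = 0.013, lost without monoculture replicate 2 or replicate 3 at 3 days) and rose by 0.95 between the days (adjusted p = 0.032, lost in 5 of 9 fits that left out a library).

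Pfkl, the liver-type phosphofructokinase gene, fell from a mean of 252.6 ± 40.8 to 120.1 ± 10.4 at 3 days (log2 fold change -1.06, adjusted p = 0.0029) and stood at 158.9 ± 44.7 at 5 days (-0.70, adjusted p = 0.031, lost in 3 fits that left out a library, at -0.44 without replicate 3 at 5 days). Bpgm, which makes and breaks 2,3-bisphosphoglycerate beside the main path, rose from 91.7 ± 10.3 to 246.2 ± 24.5 at 3 days and 208.3 ± 20.2 at 5 days (log2 fold changes 1.42 and 1.18, adjusted p = 3.9e-05 and 0.00015), and its direction was the opposite of Pfkl. Hk1 had means of 361.8, 249.0 and 414.0 and passed between the days only (0.72, adjusted p = 0.038, lost in 5 of 9 such fits). Pfkm, the muscle-type phosphofructokinase gene, had means of 67.5, 50.5 and 36.3 and passed at 5 days only (-0.91, adjusted p = 0.040, lost in 5 of 9). Gpi1, the phosphoglucose isomerase gene, and Pgam1, the phosphoglycerate mutase gene, passed in no comparison, with means of 629.1, 561.8 and 687.0, and of 17.2, 14.4 and 28.2.

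Of 14 other transport and lactate genes 8 were tested. At 3 days 3 fell (9.37% of all genes tested did), at 5 days 2 fell (11.4% of all), and 0 passed between the days. Bsg encodes basigin, the chaperone that brings the lactate carriers to the membrane. Its means of 1916 ± 134, 1754 ± 481 and 1784 ± 456 differed by less than the SD of either co-culture. Emb, the embigin gene of a related chaperone, fell from 138, 410 and 214 in the monocultures to 41.5, 46.6 and 59.8 at 3 days and 47.6, 66.1 and 32.5 at 5 days. Every co-culture library lay below every monoculture library (log2 fold changes -2.21 and -2.27, adjusted p = 0.00020 and 0.00012). Slc2a3, another glucose carrier, fell at 3 days from 40 ± 1.84 to 21.7 ± 6.45 (-0.89, adjusted p = 0.044, lost in 6 of 9 fits that left out a library) and stood at 35.7 ± 12.9 at 5 days.

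Among 12 regulators of glycolysis 10 were tested. At 3 days 3 rose and 0 fell, at 5 days 2 rose and 1 fell, and between the days 0 rose and 2 fell. In the same order, 10.6% and 9.37%, 12.6% and 11.4%, and 3.2% and 3.71% of all genes tested were called. Txnip and Arrdc4 encode arrestin-family proteins that restrain glucose uptake and whose transcripts rise with glucose sensing by the ChREBP and MondoA factors. Arrdc4 had 68.1, 57.2 and 52.1 normalised counts in the monocultures, 146.1, 160.1 and 207.3 at 3 days, and 59.3, 68 and 48.7 at 5 days. Its 3-day libraries stood above all others. It rose at 3 days (log2 fold change 1.51, adjusted p = 0.00011) and fell by 1.53 between the days (adjusted p = 0.00050). Txnip had 316.3, 142.3 and 255.2, then 616.1, 608.4 and 713.7, then 260.6, 291.5 and 429.5. It too was highest in all 3-day libraries, with a rise of 1.51 (adjusted p = 0.00055) and a fall of 1.01 between the days (adjusted p = 0.027, lost in 5 of 9 fits that left out a library).

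Pfkfb4, whose enzyme sets the level of the phosphofructokinase activator, rose at 5 days from 71.3 ± 23.2 to 156.8 ± 36.1 (1.15, adjusted p = 0.0025) and stood at 91.1 ± 2.4 at 3 days. Tigar, a bisphosphatase that opposes it, rose from 15.1 ± 4.3 to 32.4 ± 9.4 at 3 days and 30.9 ± 7.4 at 5 days (1.06 and 1.00, adjusted p = 0.025 and 0.028, lost in 3 and 4 of 9 such fits). The factor gene Mlxip, which encodes MondoA, fell at 5 days from 64.1 to 34.7 (-0.88, adjusted p = 0.016, lost in 2 of 9). Neither Hif1a nor Myc passed in any comparison, with Hif1a at -0.33 and -0.53 and Myc at 0.22 and -0.09 against monoculture at 3 and 5 days.

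Of 15 genes of pyruvate entry into mitochondria 12 were tested, with 1 lower at 3 days, 2 higher and 1 lower at 5 days, and 1 higher between the days. In the same order, 9.37%, 12.6% and 11.4%, and 3.2% of all genes tested were called. Pdk1, a kinase that shuts pyruvate dehydrogenase, fell at 3 days from 13, 16.8 and 8.4 to 1.7, 4.2 and 2.8, which rest on 9 reads in all, and stood at 10.8, 14 and 8.7 at 5 days. The 3-day libraries were below all others (log2 fold change -1.82, adjusted p = 0.0052), and the rise between the days was 1.67 (adjusted p = 0.024, lost in 3 of 9 fits that left out a library). Mpc2, a subunit of the mitochondrial pyruvate carrier, rose at 5 days from 208.3 ± 32.1 to 338.4 ± 24.1 (0.71, adjusted p = 0.0092) with 223.7 ± 32.2 at 3 days. Pcx, pyruvate carboxylase, fell at 5 days from 36.7 to 18.7 (-1.06, adjusted p = 0.036, lost in 5 of 9 fits that left out a library, at -0.60 without replicate 2 at 5 days, adjusted p = 0.18). Pdp2, a phosphatase that reopens the dehydrogenase, rose at 5 days from 5.57 to 14.9 (1.20, adjusted p = 0.041, lost in 6 of 9).

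In the pentose phosphate pathway, which branches from glucose 6-phosphate, 7 of 9 listed genes were tested, and 1 rose and 2 fell in both comparisons with monoculture. Over all genes tested 10.6% rose and 9.37% fell at 3 days, and 12.6% rose and 11.4% fell at 5 days. Taldo1, the transaldolase gene, rose from 541.0 ± 80.9 to 1092 ± 159 and 1210 ± 44.9 (1.01 and 1.17, adjusted p = 0.00059 and 0.00012). Pgd fell from 539.8 to 319.9 and 366.2 (adjusted p = 0.0080 and 0.035, the second lost in 4 of 9 fits that left out a library), and H6pd, the dehydrogenase gene of the endoplasmic reticulum, from 284.3 to 157.4 and 97.3 (adjusted p = 0.0098 and 8.4e-05). Between the days 0 of the 7 passed by limma, and only H6pd was under 0.05 before adjustment (log2 fold change -0.67, adjusted p = 0.082). Of 10 tested genes of glycogen turnover and gluconeogenesis 2 fell at 3 days and 1 at 5 days, and 1 rose and 1 fell between the days. Shares of all genes tested were 9.37% and 11.4% for the falls against monoculture, and 3.2% and 3.71% for rises and falls between the days. Gys1, the glycogen synthase gene, followed Pkm, with means of 187.5 ± 22.0, 113.8 ± 33.6 and 199.1 ± 48.4 (-0.75 at 3 days, adjusted p = 0.032, and 0.82 between the days, adjusted p = 0.045, lost in 4 and 6 of 9 such fits). Pgm2 fell at 3 days (-0.79, adjusted p = 0.035), Gyg at 5 days (-1.10, adjusted p = 0.011), and Pck2 between the days (-1.05, adjusted p = 0.048), and these calls were lost in 4, 2 and 8 of 9 such fits.

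HIF targets outside glycolysis were read beside the pathway, 19 of 20 tested. At 3 days 8 fell and 3 rose, at 5 days 3 fell and 2 rose, and between the days 7 rose and 1 fell, with medians of -0.56, 0.29 and 0.68. In the same order, 9.37% and 10.6%, 11.4% and 12.6%, and 3.2% and 3.71% of all genes tested were called. Egln1 encodes the oxygen sensor that marks HIF for destruction. It had 186.9, 235.5 and 154.9 normalised counts in the monocultures, 46.5, 49.4 and 80.7 at 3 days, and 212, 278.5 and 213.5 at 5 days. The 3-day libraries lay below all others, as those of Ldha and Pkm did (-1.72 at 3 days, adjusted p = 8.1e-05, and 2.01 between the days, adjusted p = 0.00015). Ankrd37 fell from 31.7 ± 10.9 to 2.97 ± 1.43 and stood at 16.2 ± 2.2 at 5 days (-3.07 at 3 days, adjusted p = 3.3e-05, and 2.18 between the days, adjusted p = 0.0027). Higd1a, a gene of a mitochondrial membrane protein, went from 94.7 to 20.2 and 51.4 (-2.17 at 3 days, adjusted p = 7.7e-05). Bnip3, a mitophagy receptor gene whose last 300 bases share 55.4% of their windows with 2 other annotated genes, went from 225.8 to 85.9 and 345.1 (-1.39 at 3 days, adjusted p = 0.017, lost in 2 of 9 fits that left out a library, and 1.92 between the days, adjusted p = 0.0063).

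Other HIF targets moved otherwise. Vegfa and Ero1l, not among the 4 listed genes with the smallest adjusted p in any comparison, were highest in mean at 3 days. Vegfa had means of 754.2 ± 42.5, 1474 ± 371 and 1038 ± 112, with every 3-day library above all others. Ero1l had means of 17.9 ± 4.0, 40.4 ± 13.2 and 30.9 ± 13.6. Pgf, the placental growth factor gene, rose in every step, from 15.7 ± 4.0 to 92.5 ± 25 and 238.9 ± 71.8 (2.48 and 3.83 against monoculture, adjusted p = 1.5e-05 and 9.0e-08). Adm, the adrenomedullin gene, fell in every step, from 285.6 ± 65.1 to 93.5 ± 18.0 and 27.6 ± 5.1 (-1.59 and -3.31, adjusted p = 0.00014 and 5.0e-08). Between the days Pgf rose by 1.35 (adjusted p = 0.0094, lost without replicate 1 or 2 at 5 days) and Adm fell by 1.72 (adjusted p = 0.00030). Car12, a carbonic anhydrase gene, had means of 9.73, 7.23 and 22.3 and rose at 5 days against monoculture (1.16, adjusted p = 0.035) and between the days (1.56, adjusted p = 0.021), calls lost in 5 and 4 of 9 fits that left out a library. Ddit4, a stress-induced inhibitor of mTORC1 signalling, fell at 5 days from 660.6 to 389.3 (-0.74, adjusted p = 0.020, lost in 2 of 9).

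**Figure D3:**
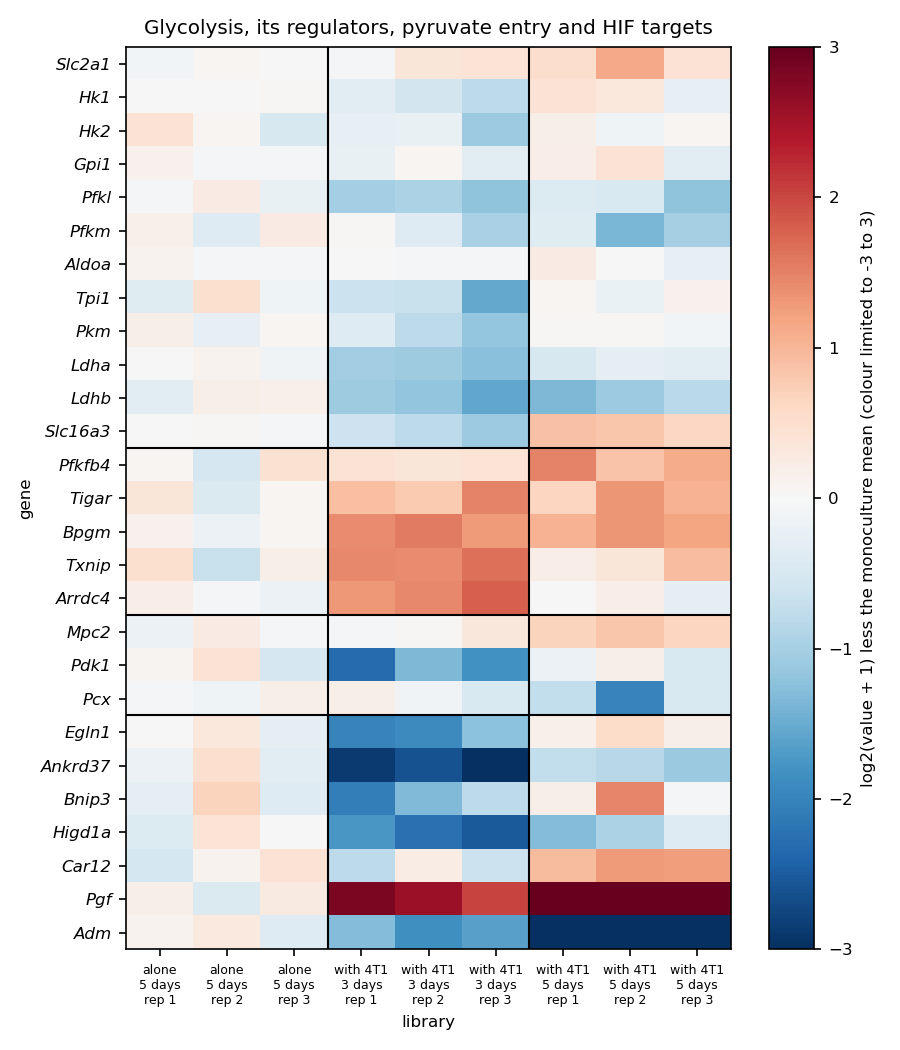
Log2(value + 1) of each gene less its mean in the monocultures (colour, limited to -3 to 3), with genes in rows by role and the 9 libraries in columns. The 3-day columns are blue for Ldha, Pkm, Tpi1, Pdk1, Egln1 and Ankrd37 and red for Txnip and Arrdc4.

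Summed over the 7 genes other than Gapdh, the pathway held 0.625%, 0.543% and 0.576% of all normalised counts in the monocultures, 0.431%, 0.380% and 0.345% at 3 days, and 0.591%, 0.586% and 0.517% at 5 days. The 3-day libraries lay below all others, and the 5-day libraries overlapped the monocultures. Of 13 epithelial and carcinoma markers tested, 12 rose in each comparison with monoculture, where 10.6% and 12.6% of all genes tested rose. Between the days 0 rose and 1, Lcn2, fell (means 269 and 101), where 3.2% and 3.71% of all genes did. Their sums overlapped at 3 and 5 days only with Lcn2 included. Without it, an alternative chosen after seeing the data, they were 999.5, 777.7 and 1028.1 at 3 days and 1134.9, 1030.2 and 1411.9 at 5 days, with no overlap. Krt8, Krt19 and Wfdc2 were each higher in all 5-day than in all 3-day libraries, with means of 40.3 and 69.3, 45.5 and 84.6, and 320.1 and 441.4, though none passed the test (adjusted p = 0.30, 0.067 and 0.54). Krt7, Krt18, Esrp1 and Elf3 were also higher in mean at 5 days. Others were lower in mean: Cldn4 (68.5 and 44.3), Cldn3 (15.1 and 10.2), Epcam, Cdh1, Spint1 and Spint2, beside Lcn2. The median log2 fold change of the 13 between the days was 0.07. The part of these markers in the difference between the days was not tested.

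**Figure D4:**
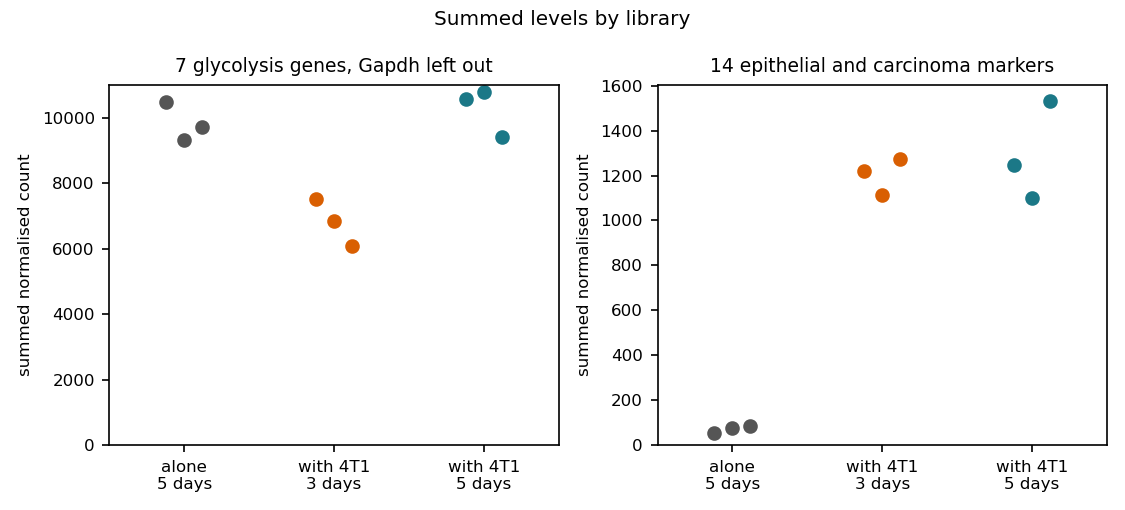
Summed normalised counts by library of the 7 glycolysis genes without Gapdh (left) and of 14 epithelial and carcinoma markers (right). The left sums are lowest at 3 days, between 6094 and 7503, and the right sums are high in all 6 co-cultures.

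The genes with the profile nearest to the mean of the 8 were Tradd, Imp4, Dnpep, Mirg and Abl2, with root mean square differences of 0.14 to 0.17 on the log2 scale over the 9 libraries, among 4839 genes with a mean of at least 50. The mean profile carries the single high Gapdh library. In replicate 1 at 5 days Gapdh stood 5.57 above its monoculture mean on the log2 scale, and the mean of the 8 stood at 0.83. Among the 8 themselves, each of which counts in that mean, Slc16a3 was nearest to it (0.31) and Gapdh farthest (1.69). Both rankings depend on that Gapdh value and do not describe the pathway without Gapdh, for which none was made. For Ldha alone, chosen after its values were seen, the nearest were Hdlbp, Hic1, Bag3, Prrx2 and Cd248 (0.12 to 0.16).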

How the data were processed

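Fibroblasts were profiled by 3′ end mRNA sequencing in 9 libraries, 3 in each of 3 groups. Per the submitters' processing notes, bcl2fastq, STAR 2.4.2a, HTSeq and the mm10 build were used. The annotation, strand setting, gene filter and normalisation method are not given in the sources used here. The authors deposited normalised counts, a signal obtained by dividing each library's counts by a library factor. Whole reads were recovered from the value of 1 read (0.481 to 1.66) within a tolerance of 0.051, and 99.4% to 100% of values were whole.

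Of 11931 genes, 10639 reached 5 in 3 or more libraries and entered the test. They were compared with limma 3.58.1 (R 4.3.3, eBayes with trend) on log2(value + 1), with 1 mean per group over all 9 libraries, Benjamini-Hochberg adjustment and a threshold of 0.05. The script was tested on simulated data. Alternatives were pseudocounts of 0.5 and 5, other filters and scalings, a replicate block, the compared groups alone, edgeR 4.0.16 and DESeq2 1.42.0 on recovered reads, and leaving out each library. Ratios within a library were compared by exact permutation tests. Named were the 8 genes, chosen paralogs, up to 4 called genes of each list in each comparison, with the smallest adjusted p, and the 5 nearest profiles. The genes and lists were chosen with earlier results of these data known. Nothing says that reads were collapsed to molecules.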

Additional observations from a re-analysis of the deposited data

Results flagged for a closer look

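The 2 co-culture groups differed for 3 of the 8 genes, tested directly against each other (limma, adjusted over all genes tested). Of all genes tested, 3.2% were higher at 5 than at 3 days and 3.71% were lower. With no 3-day monoculture, time in culture and co-culture cannot be told apart in this comparison. Slc16a3 was higher at 5 days by 1.60 on the log2 scale (adjusted p = 8.0e-05), Ldha by 0.76 (adjusted p = 0.0093) and Pkm by 0.77 (adjusted p = 0.035). For each gene all 3 libraries at 5 days lay above all 3 at 3 days. Slc2a1, Hk2 and Gapdh, which were not called here, separated in the same way, so 6 of the 8 genes did. The share of all genes that separate in this way was not counted. The Pkm call did not hold in 5 of the 9 fits that left out a library.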

How the results depend on the processing

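Whether the replicate numbers pair the libraries is unclear. Same-numbered libraries correlated at -0.11 to 0.23 in their deviations, above 0.1 in 4 of 9 pairs. Differently numbered libraries of different groups correlated at -0.30 to 0.32, above 0.1 in 4 of 18 pairs. With the replicate block the counts of the 8 genes called stayed at 0 higher and 3 lower at 3 days, 3 and 0 at 5 days, and 3 and 0 between the days. Over all alternatives 2 to 3 fell at 3 days, 1 to 3 rose at 5 days (1 without monoculture replicate 1) and 2 to 4 rose between the days (4 by edgeR, 3 by DESeq2). Over 43 named genes and 129 log2 fold changes, 2363 of 2562 alternative values kept direction and side of the threshold, 141 lost the call, 19 gained it and 39 changed sign.

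Signs changed near 0. At 5 days against monoculture Hk2 was -0.019 by edgeR and -0.015 by DESeq2, and under quantile normalisation Gpi1 was -0.042 and Arrdc4 0.020. Between the days Bsg was -0.011 and Tigar 0.0063 under quantile normalisation, and Emb 0.00089 by edgeR. The log2 ratio of Ldha to Ldhb at 3 days was -0.016 with a pseudocount of 5. The cause was not tested. Leaving out each library gave, at 3 days against monoculture, -0.051 to 0.031 for Aldoa, -0.352 to 0.057 for Bsg, -0.0093 to 0.224 for Mpc2, -0.275 to 0.041 for Pcx and -0.419 to 0.045 for Pgam1. At 5 days it gave -0.136 to 0.108 for Aldoa, -0.127 to 0.110 for Arrdc4, -0.324 to 0.035 for Bsg, -0.073 to 0.317 for Gpi1, -0.118 to 0.221 for Gys1, -0.198 to 0.251 for Hk2, -0.399 to 0.062 for Pdk1, -0.014 to 0.538 for Pgk1, -0.134 to 0.086 for Pkm and -0.182 to 0.237 for Tpi1. Between the days it gave -0.114 to 0.130 for Aldoa, -0.188 to 0.220 for Bsg, -0.350 to 0.0017 for Ddit4, -0.302 to 0.199 for Emb and -0.216 to 0.164 for Tigar. The log2 ratio of Hk2 to Hk1 ranged from -0.228 to 0.241 at 3 days, -0.380 to 0.089 at 5 days and -0.368 to 0.0045 between the days.

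Gapdh, Pgk1, Pdk1 and Ankrd37 rest on few reads in most libraries, which limits their results. The same limit applies, among others, to Car12 (23 reads in all at 3 days) and Pdp2 (29 in the monocultures and 29 at 3 days). It also applies to Ldhb (48 reads at 3 days and 58 at 5 days), and so to the ratio of Ldha to Ldhb. Why their reads are few was not tested. DESeq2 gave no adjusted p for Gapdh at 5 days, and that alternative has no value.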

Other observations

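Nearest in profile to Slc16a3 alone, chosen after its values were seen, were Tubb2a (root mean square difference 0.19 on the log2 scale over the 9 libraries) and Arf2 (0.26). The adipocyte gene Fabp4, the single listed adipocyte marker with a row, stood between 93.5 and 145.2 normalised counts in the monocultures, 5 and 22.3 at 3 days and 9 and 16.2 at 5 days.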
